A study of Homo sapiens with 54 samples.

Results

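The 51 genes described here encode the proteins that license replication origins, activate the replicative helicase, copy DNA, load and unload the sliding clamp, coat single-stranded DNA, supply deoxynucleotides, and package or protect DNA at the fork. They were chosen by symbol through the table that pairs each probe set with a gene. Of the 51, 50 had a value among the 17875 genes of the array table, and UHRF1 is not analysed here. The level filter described with the methods passed 49 of them in both arms of the study, and CLSPN fell below it.

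The measurements are total RNA levels in WM266-4, an established human melanoma cell line that carries BRAF V600D, a mutation that keeps the RAF-MEK-ERK kinase cascade active. Of the 54 arrays, 30 form an inhibitor arm, with DMSO as the vehicle control and 4 kinase inhibitors at 3 h and 24 h. These are the BRAF inhibitor LGX818 at 0.05 uM, the MEK inhibitors trametinib at 0.003 uM and MEK162 at 0.3 uM, and an ERK inhibitor, not named in the labels, at 0.2 uM. The other 24 form an shRNA arm of parental cells and of cells carrying an inducible shRNA, either non-targeting (NT), directed at ERK1 (shERK1) or directed at ERK2 (shERK2), at day 3 and day 7. The shRNA cells received 100 ng/ml doxycycline; for the parental cells the description says untreated and the treatment field names doxycycline. Each of the 18 groups has 3 arrays (a to c). Nothing in the labels states that these are independent cultures, so a p covers only the spread among these arrays, which may be technical. All cells are 1 line, and the labels name 1 shRNA for each ERK gene, so effects of the shRNA sequence and of the target cannot be told apart.

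As background, a cell prepares to copy its DNA in G1 phase, when the origin recognition complex, CDC6 and CDT1 place the MCM helicase on DNA in an inactive form. Cyclin E with its kinase partner, together with CDC45 and the GINS complex, then turns the helicase on, and polymerases, clamp and ligase follow the fork while ribonucleotide reductase and thymidylate enzymes feed it. Many of these genes are transcribed mainly as cells enter S phase, and E2F factors are well known to bind their promoters. In bulk RNA, fewer cells in S phase and less RNA per cell cannot be told apart.

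The deposited values are log2 expression levels from robust multi-array averaging, so a difference of 1 is a change of 2-fold. Array medians ran from 7.78 to 8.04, arrays correlated with their own group at 0.9905 to 0.9983 on average, and 0 pairs were identical. The 7 melanocytic markers in the table had levels from 11.07 to 13.96, and leukocyte, epithelial and stromal markers reached at most 8.32. Arrays a and c of shERK2 at day 7 stood apart: their 3' minus 5' signal of the GAPDH control, a sign of degraded or shortened RNA, was 1.53 and 0.565, against 0.179 to 0.32 in the 9 parental, NT and shERK1 arrays of that day. Array c of the ERK inhibitor at 3 h read 0.707. At 24 h, arrays a and b of the ERK inhibitor read 0.53 and 0.372 and array a of LGX818 read 0.47, against 0.185, 0.201 and 0.291 in DMSO. The 24 h counts given for these inhibitors were the same, 49 and 48, without any 1 of those arrays. DUSP6, an immediate feedback target of ERK, fell with every inhibitor at 3 h, by 4.49 with LGX818, 2.69 with trametinib, 3.64 with MEK162 and 1.98 with the ERK inhibitor on the log2 scale. CCND1, the gene of cyclin D1, differed by -0.56, -0.59, -0.65 and -0.58 at 3 h and by -2.15, -1.12, -1.73 and -1.05 at 24 h in the same order, called each time. MAPK3, the gene of ERK1, fell by 1.54 at day 3 and 1.40 at day 7 in shERK1 cells.

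After 24 h nearly the whole set was down with every inhibitor. LGX818 lowered 48 of 49 tested members, and trametinib, MEK162 and the ERK inhibitor lowered 49 of 49 (limma, adjusted p under 0.05). Among all tested genes, 33.8%, 33%, 33.8% and 31.5% were lower in the same order. None of the members rose, while 35.4%, 31.6%, 33.4% and 33.6% of all tested genes did. The median difference from DMSO was -2.26 with LGX818, -1.90 with trametinib, -2.30 with MEK162 and -1.85 with the ERK inhibitor, against medians within 0.016 of 0 over all tested genes. Falls of at least 1 log2 were found for 45, 45, 45 and 44 members, compared with 8.01%, 7.02%, 7.77% and 6.59% of all genes. The 4 comparisons share the same 3 DMSO arrays, and doses differ between the inhibitors.

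**Figure D1:**
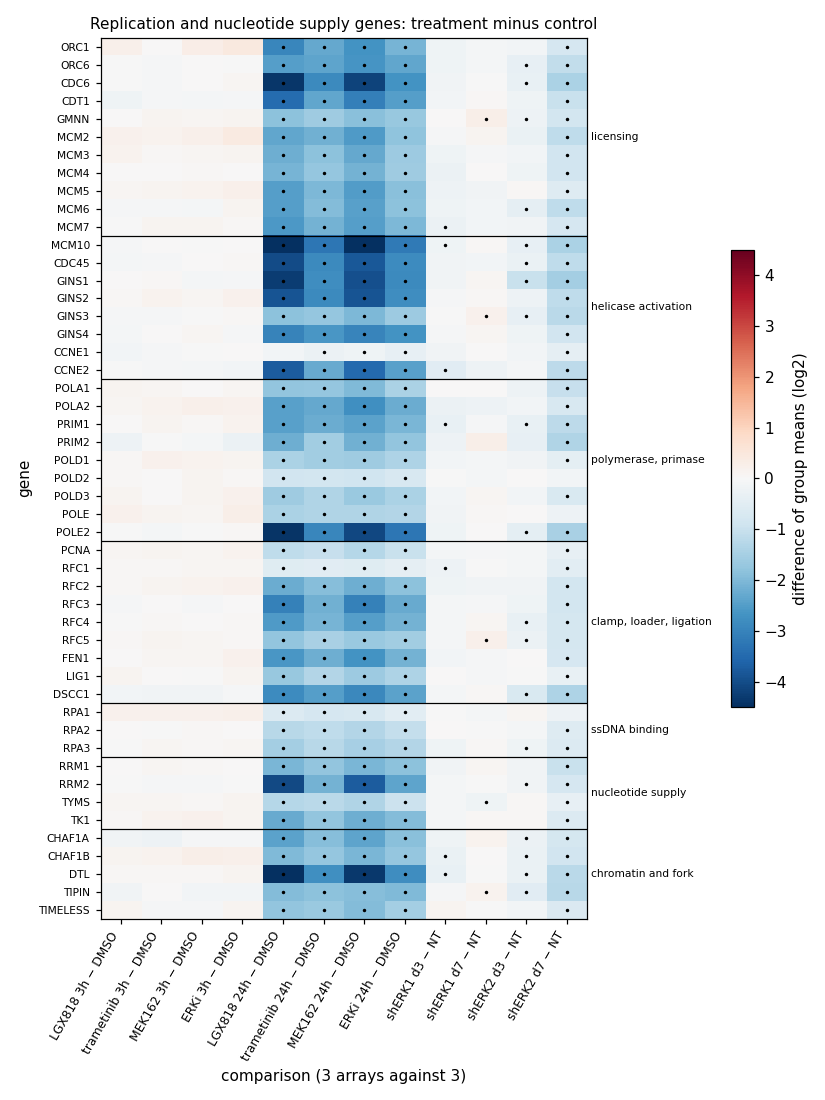
Heat map of 49 genes (rows, grouped by role) and 12 comparisons (columns); colour is the difference of group means in log2 (3 arrays against 3), blue for lower than control, and a dot marks an adjusted p under 0.05. The 24 h inhibitor columns are blue for nearly all genes, the 3 h columns carry no dots, and the shERK2 day 7 column has 46 dots.

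The members did not fall by like amounts. Averaged over the 4 inhibitors, MCM10 fell by 4.01, POLE2 by 3.68 and DTL by 3.67, while CCNE1, RFC1 and RPA1 had the smallest mean differences, at -0.23, -0.50 and -0.64. The promoter windows of these 6 genes are shown because they mark both ends of that order. Each holds 300 bases from RefSeq (GRCh38.p14), from 250 before to 50 after the annotated start, and is written 5′ to 3′ on the gene's own strand. Capitals mark E2F-type letters, that is TTTCCCGC, TTTGGCGC, TTTCGCGC or TTTGCCGC on either strand.
The MCM10 window lies at chr10:13161308-13161607 on the plus strand, the POLE2 window at chr14:49688165-49688464 on the minus strand, and the DTL window at chr1:212035498-212035797 on the plus strand.
The CCNE1 window lies at chr19:29811741-29812040 on the plus strand, the RFC1 window at chr4:39366313-39366612 on the minus strand, and the RPA1 window at chr17:1829755-1830054 on the plus strand.
MCM10: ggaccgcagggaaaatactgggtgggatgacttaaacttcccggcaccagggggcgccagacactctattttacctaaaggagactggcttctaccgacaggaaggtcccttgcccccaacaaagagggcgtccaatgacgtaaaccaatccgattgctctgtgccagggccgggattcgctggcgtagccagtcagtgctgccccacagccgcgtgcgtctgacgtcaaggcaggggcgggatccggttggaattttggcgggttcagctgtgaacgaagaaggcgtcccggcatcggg
POLE2: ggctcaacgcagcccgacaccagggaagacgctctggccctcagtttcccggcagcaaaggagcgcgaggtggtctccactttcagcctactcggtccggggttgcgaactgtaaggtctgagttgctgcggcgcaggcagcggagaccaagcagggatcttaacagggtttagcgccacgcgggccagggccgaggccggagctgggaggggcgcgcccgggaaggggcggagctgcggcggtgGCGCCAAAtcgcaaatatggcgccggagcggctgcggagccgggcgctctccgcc
DTL: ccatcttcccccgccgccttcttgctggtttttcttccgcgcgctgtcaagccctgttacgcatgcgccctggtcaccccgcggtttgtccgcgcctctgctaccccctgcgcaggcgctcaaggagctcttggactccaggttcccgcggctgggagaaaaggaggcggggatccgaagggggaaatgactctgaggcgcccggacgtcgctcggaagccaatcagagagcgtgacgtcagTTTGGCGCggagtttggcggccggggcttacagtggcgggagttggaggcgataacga
CCNE1: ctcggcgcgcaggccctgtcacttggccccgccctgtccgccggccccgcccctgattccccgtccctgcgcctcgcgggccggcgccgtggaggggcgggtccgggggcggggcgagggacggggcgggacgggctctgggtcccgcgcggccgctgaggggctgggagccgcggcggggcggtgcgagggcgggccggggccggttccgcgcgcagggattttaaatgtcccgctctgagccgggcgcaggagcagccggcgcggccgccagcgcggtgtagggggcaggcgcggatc
RFC1: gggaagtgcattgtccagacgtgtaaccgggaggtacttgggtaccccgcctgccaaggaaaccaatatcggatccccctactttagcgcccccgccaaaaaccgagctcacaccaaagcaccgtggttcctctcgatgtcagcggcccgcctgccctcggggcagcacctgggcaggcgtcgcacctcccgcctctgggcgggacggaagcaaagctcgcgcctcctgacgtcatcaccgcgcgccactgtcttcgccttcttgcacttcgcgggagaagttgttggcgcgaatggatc
RPA1: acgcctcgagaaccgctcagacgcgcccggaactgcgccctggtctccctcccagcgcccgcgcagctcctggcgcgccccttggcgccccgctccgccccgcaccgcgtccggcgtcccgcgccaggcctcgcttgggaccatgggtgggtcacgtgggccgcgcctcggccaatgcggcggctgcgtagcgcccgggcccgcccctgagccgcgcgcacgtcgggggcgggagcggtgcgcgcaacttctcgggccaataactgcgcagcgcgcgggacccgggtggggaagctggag
POLE2 and DTL each held 1 E2F-type stretch, starting 5 and 8 bases before the start site, and the other 4 windows held none. Only the exact letters listed were counted. Near matches, such as TTTGGCGG in the MCM10 and DTL windows, were not. Windows were counted for 42 of the 51 members, and 21 of these 42 (50%) held E2F-type letters, compared with 3.99% of all 27305 genes with a window. Members in barred regions were not counted, while the 27305 may include genes there. The shares of members and of all genes, here and below, therefore need not follow the same rule. The letters CCAAT, on either strand, stood in 27 member windows (64.3%) against 39.7% of all genes. The letters TTTGAA, on either strand, known as a cell cycle homology element, stood in 1 (2.38%), that of RRM1, against 18.2%. Among member windows, 1 E2F-type match overlapped another of these motifs. The 6 windows shown were 59.7% to 81% G and C. The windows of all genes were not matched to those of the members for base composition, and its part in these shares was not tested. These are matches of letters, and no binding was measured.

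Origin licensing genes fell as a block. All 11 were lower with all 4 inhibitors, each by at least 1 log2, with medians of -2.47, -2.12, -2.51 and -1.88 for LGX818, trametinib, MEK162 and the ERK inhibitor. CDC6, the loader that works with CDT1, had the largest mean fall over the 4 inhibitors. At 24 h its log2 level was 10.02, 10.12 and 10.10 in DMSO arrays a to c, 5.73, 5.88 and 5.53 with LGX818, and 7.06, 7.22 and 7.38 with trametinib. It was 5.86, 5.94 and 5.94 with MEK162 and 7.46, 7.53 and 7.17 with the ERK inhibitor. No treated array came near DMSO, and the LGX818 and MEK162 arrays lay below the trametinib and ERK inhibitor arrays. The difference from DMSO was -4.37 ± 0.09 with LGX818, a 20.6-fold fall, and -2.69 ± 0.09 with the ERK inhibitor. Here and below, ± gives the moderated limma standard error (SE) of the difference, with 3 arrays per group. Its spread is pooled over all arrays of the arm.

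GMNN, or geminin, which binds and blocks CDT1, had the smallest mean fall over the 4 inhibitors among the licensing genes, at 1.77. Its DMSO arrays read 12.18, 11.98 and 12.07, the LGX818 arrays 10.12, 10.28 and 10.26, and the trametinib arrays 10.40, 10.60 and 10.44. The MEK162 arrays read 10.34, 10.05 and 10.16 and the ERK inhibitor arrays 10.33, 10.38 and 10.41. These ranges did not overlap DMSO and lay close together across inhibitors. CDT1 itself fell by 3.47 with LGX818 and by 2.33 with trametinib, and ORC1 and ORC6, subunits of the origin recognition complex, fell by 2.93 and 2.48 with LGX818. The 6 subunits of the MCM helicase core, MCM2, MCM3, MCM4, MCM5, MCM6 and MCM7, moved together: with LGX818 all fell, with differences of -2.35, -2.19, -2.08, -2.47, -2.46 and -2.58, and with the ERK inhibitor of -1.82, -1.64, -1.60, -1.88, -1.85 and -2.02.

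The genes that activate the helicase held the largest falls and the smallest. MCM10, which helps convert the loaded helicase to its active form, read 10.33, 10.37 and 10.29 in DMSO, 5.52, 5.24 and 5.12 with LGX818 and 6.92, 7.08 and 7.25 with trametinib. It read 6.15, 5.76 and 5.33 with MEK162 and 7.02, 7.35 and 7.08 with the ERK inhibitor. The fall was 32.9-fold with LGX818 (-5.04 ± 0.13 log2, adjusted p = 3.21e-22), 24.0-fold with MEK162, 9.47-fold with trametinib and 9.07-fold with the ERK inhibitor. The treated levels lay under 7.86, the median of all values and the filter level. CDC45 and the GINS subunits GINS1, GINS2 and GINS4, parts of the active helicase, fell by 4.02, 4.27, 3.88 and 3.00 with LGX818, and GINS3 by 1.83.

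The cyclin E genes, which code for alternative partners of the same S phase kinase, differed. CCNE2 fell, with differences of -3.74 with LGX818, -2.26 with trametinib, -3.49 with MEK162 and -2.46 with the ERK inhibitor. CCNE1 read 11.50, 11.43 and 11.36 in DMSO, 11.21, 11.37 and 11.37 with LGX818, and 11.20, 11.23 and 11.11 with trametinib. It read 11.26, 11.21 and 11.26 with MEK162 and 11.11, 11.03 and 11.09 with the ERK inhibitor. The LGX818 arrays overlapped DMSO, and the other 3 groups lay just below it. The CCNE1 difference was -0.12 with LGX818 (95% interval -0.24 to 0.01, limma adjusted p = 0.101), the single member and inhibitor without a call. It was -0.25 with trametinib, -0.19 with MEK162 and -0.35 with the ERK inhibitor, and the MEK162 call was lost without DMSO array a.

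Polymerase and primase genes all fell, the accessory subunits by very different amounts. All 9 were lower with all 4 inhibitors, and 8 of 9 by at least 1 log2. POLE2, the second subunit of DNA polymerase epsilon, read 11.34, 11.47 and 11.45 in DMSO, 6.89, 6.99 and 7.11 with LGX818 and 8.45, 8.33 and 8.68 with trametinib. It read 6.99, 7.25 and 7.70 with MEK162 and 7.91, 8.54 and 8.04 with the ERK inhibitor. The falls were 21.4-fold with LGX818 and 7.63-fold with trametinib, while POLE, the catalytic subunit of the same enzyme, fell by 1.42 and 1.37 log2. POLD2, an accessory subunit of DNA polymerase delta, had the smallest fall with each inhibitor. Its DMSO arrays read 11.64, 11.66 and 11.69, the LGX818 arrays 10.75, 10.90 and 10.77, and the trametinib arrays 10.95, 10.84 and 10.74. The MEK162 arrays read 10.72, 10.70 and 10.87 and the ERK inhibitor arrays 10.97, 10.98 and 10.87, again with no overlap with DMSO. Between these lay POLD1, the delta catalytic subunit, and POLD3 (falls of 1.41 and 1.61 with LGX818). The primer-making subunits POLA1, POLA2, PRIM1 and PRIM2 fell too, with differences of -1.77, -2.43, -2.46 and -2.20 with LGX818.

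**Figure D2:**
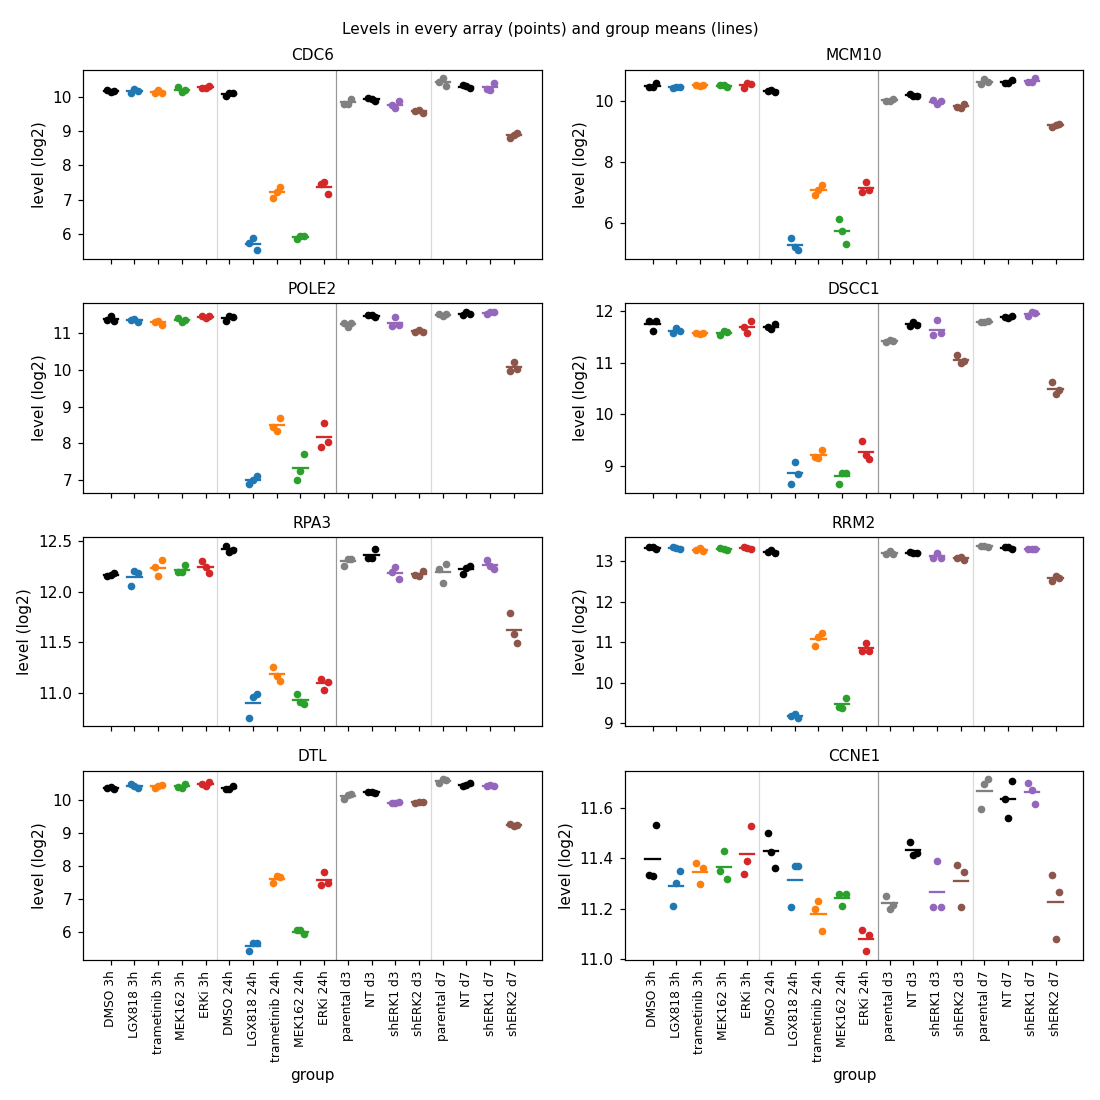
Log2 level of 8 members in every array (points) and the group mean (line) for the 18 groups, inhibitor arm on the left of the grey line and shRNA arm on the right; each panel has its own axis. CDC6, MCM10, POLE2, RRM2 and DTL drop at 24 h with all inhibitors and less at day 7 with shERK2, and CCNE1 covers less than 1 log2 in all.

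Among clamp, loader and ligation genes all 9 fell with all 4 inhibitors, and 8 of 9 by at least 1 log2. PCNA, the sliding clamp, fell by 1.16, 1.02, 1.28 and 1.01 with LGX818, trametinib, MEK162 and the ERK inhibitor. DSCC1, part of an alternative clamp loader that acts in sister chromatid cohesion, had the largest mean fall over the 4 inhibitors, at 2.67. Its DMSO arrays read 11.70, 11.65 and 11.74, the LGX818 arrays 8.65, 9.07 and 8.83, and the trametinib arrays 9.17, 9.15 and 9.31. The MEK162 arrays read 8.64, 8.86 and 8.87 and the ERK inhibitor arrays 9.49, 9.20 and 9.13, far below DMSO in each case. RFC1, the large subunit of the main loader, read 10.39, 10.47 and 10.41 in DMSO, 10.03, 9.84 and 9.79 with LGX818 and 9.90, 9.95 and 9.89 with trametinib. It read 9.99, 9.92 and 9.76 with MEK162 and 9.91, 10.07 and 10.04 with the ERK inhibitor. All treated RFC1 arrays lay below DMSO, but the fall was at most 1.45-fold. The small loader subunits RFC2, RFC3, RFC4 and RFC5 differed by -2.25, -3.02, -2.53 and -1.76 with LGX818, and FEN1, the flap nuclease, and LIG1, the ligase that joins Okazaki fragments, by -2.61 and -1.71.

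The 3 genes of RPA, the complex that coats single-stranded DNA, had the smallest falls of any role, with medians of -1.26, -1.15, -1.31 and -1.07. RPA3 read 12.46, 12.40 and 12.41 in DMSO, 10.75, 10.96 and 10.99 with LGX818 and 11.26, 11.17 and 11.12 with trametinib. It read 10.99, 10.91 and 10.89 with MEK162 and 11.14, 11.03 and 11.11 with the ERK inhibitor. RPA1, the large subunit, read 10.50, 10.39 and 10.78 in DMSO, 10.09, 9.96 and 9.80 with LGX818 and 9.86, 9.75 and 9.77 with trametinib. It read 9.86, 9.75 and 9.86 with MEK162 and 10.28, 10.04 and 9.95 with the ERK inhibitor. Neither gene overlapped DMSO, and RPA1 array a of the ERK inhibitor came closest to it. RPA2 lay between them, with a fall of 1.26 with LGX818.

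All 4 nucleotide supply genes fell with all 4 inhibitors. RRM2, the small subunit of ribonucleotide reductase, which turns ribonucleotides into deoxyribonucleotides, read 13.23, 13.26 and 13.19 in DMSO, 9.17, 9.22 and 9.14 with LGX818 and 10.90, 11.13 and 11.24 with trametinib. It read 9.41, 9.38 and 9.63 with MEK162 and 10.78, 10.97 and 10.80 with the ERK inhibitor. Its falls were 16.6-fold, 4.40-fold, 13.5-fold and 5.20-fold with LGX818, trametinib, MEK162 and the ERK inhibitor. RRM1, the large subunit, fell by 2.06, 1.77, 2.06 and 1.83 log2, a narrower range. TYMS, which makes thymidylate, had the smallest fall of the 4 with each inhibitor. Its DMSO arrays read 13.04, 12.99 and 13.16, the LGX818 arrays 11.90, 11.91 and 11.55, and the trametinib arrays 11.85, 11.89 and 11.78. The MEK162 arrays read 11.62, 11.76 and 11.71 and the ERK inhibitor arrays 12.35, 12.07 and 11.89, so that every treated array lay below DMSO. TK1, which salvages thymidine, fell by 2.26, 1.77, 2.20 and 1.94.

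Of the chromatin and fork genes, the 5 that were tested fell with all 4 inhibitors, each by at least 1 log2. DTL, an adaptor of the ubiquitin ligase that removes CDT1 once replication starts, read 10.34, 10.32 and 10.43 in DMSO, 5.41, 5.67 and 5.67 with LGX818 and 7.47, 7.69 and 7.67 with trametinib. It read 6.04, 6.04 and 5.94 with MEK162 and 7.42, 7.81 and 7.49 with the ERK inhibitor, so that all treated arrays lay far below DMSO and the LGX818 arrays lowest. TIMELESS, which with TIPIN holds the fork together, read 7.85, 7.94 and 8.17 in DMSO, 6.10, 6.43 and 6.16 with LGX818 and 6.31, 6.38 and 6.29 with trametinib. Its MEK162 arrays read 6.12, 5.77 and 6.22 and its ERK inhibitor arrays 6.54, 6.49 and 6.31, all below DMSO. TIPIN fell by 1.95 with LGX818, and CHAF1A and CHAF1B, subunits of the chaperone that lays histones on new DNA, by 2.40 and 1.98. CLSPN, the checkpoint adaptor claspin, was below the level filter and was not tested. It read 7.53, 7.41 and 7.11 in DMSO and between 3.67 and 4.77 in the 12 treated arrays at 24 h.

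**Figure D3:**
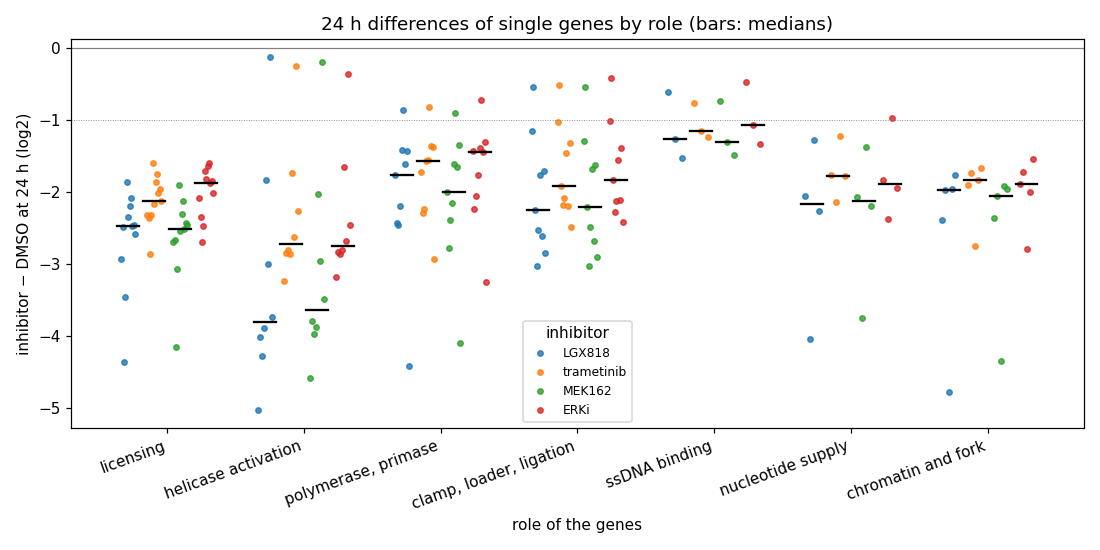
Difference from DMSO at 24 h in log2 (y axis) for each of 49 genes (points) by role (x axis) and inhibitor (colour); black bars are medians and the dotted line marks -1. Helicase activation genes have the lowest medians, from -3.81 with LGX818 to -2.72 with trametinib, and ssDNA binding genes the highest.

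At 3 h no such change was found. With each inhibitor 0 of 49 members passed the test (limma, adjusted p under 0.05), and at an unadjusted p under 0.05 there were 0 with LGX818, 3 with trametinib, 2 with MEK162 and 8 with the ERK inhibitor. Among all tested genes 11.7%, 11.3%, 13.2% and 10.4% had already changed, DUSP6 among them. Median member differences were 0.03, 0.05, 0.05 and 0.08. The lowest and highest single values were -0.23 and 0.22 with LGX818 and -0.26 and 0.46 with the ERK inhibitor, and the 95% intervals of all members with all inhibitors lay between -0.64 and 0.84. MCM10, with the largest fall at 24 h, read 10.48, 10.45 and 10.59 in DMSO and 10.43, 10.47 and 10.47 with LGX818 at 3 h, and RRM2 read 13.35, 13.34 and 13.31 against 13.34, 13.33 and 13.30. With the array letter as a block, which pairs the arrays of the MEK162 3 h comparison by the check given with the methods, 1 member passed there, CHAF1B, at a difference of 0.27. Leaving out 1 array (trametinib b, DMSO c or ERK inhibitor b) gave 2, 2 and 1 calls with trametinib, MEK162 and the ERK inhibitor, all of them higher.

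The difference between the 24 h and the 3 h effects was tested directly. It was below 0 and passed for 48 of 49 members with LGX818, trametinib and MEK162 and for 49 with the ERK inhibitor, against 26%, 27.1%, 27.4% and 25.4% of all tested genes. The member outside the call was CCNE1 each time. DMSO cells themselves moved little from 3 h to 24 h: 4 members were lower (ORC6, TIPIN, CHAF1A and RPA2) and 2 higher (PRIM1 and RPA3), with 15% and 16.3% of all genes called in those directions, and no member differed by 1 log2. Without DMSO 24 h array a, 3 members were called.

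Trametinib at 0.003 uM and MEK162 at 0.3 uM, which both inhibit MEK, left different levels at these doses. At 24 h 31 of 49 members were higher with trametinib than with MEK162 and none was lower, while 3.63% of all tested genes were higher. RRM2 was higher by 1.62 ± 0.07 (moderated SE, 95% interval 1.49 to 1.75). DTL was higher by 1.60, MCM10 by 1.34, CDC6 by 1.30, CCNE2 by 1.22, POLE2 by 1.17 and GINS1 by 1.16. By role, 9 of 11 licensing genes and 6 of 8 helicase activation genes were higher, as were 3 of 9 polymerase and primase genes, 7 of 9 clamp, loader and ligation genes, 1 of 3 ssDNA binding genes, 3 of 4 nucleotide supply genes and 2 of 5 chromatin and fork genes. Differences between roles were not tested. For the members with no call the interval could still be narrow or wide: it was -0.19 to 0.07 for CCNE1, -0.11 to 0.15 for RFC1 and -0.34 to 0.30 for POLE. DUSP6 moved with them: it was lower with MEK162 (10.57) than with trametinib (11.38) at 24 h. Without trametinib array c, 22 members were called. The doses differ by compound, so the difference cannot be told apart from one of dose.

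**Figure D4:**
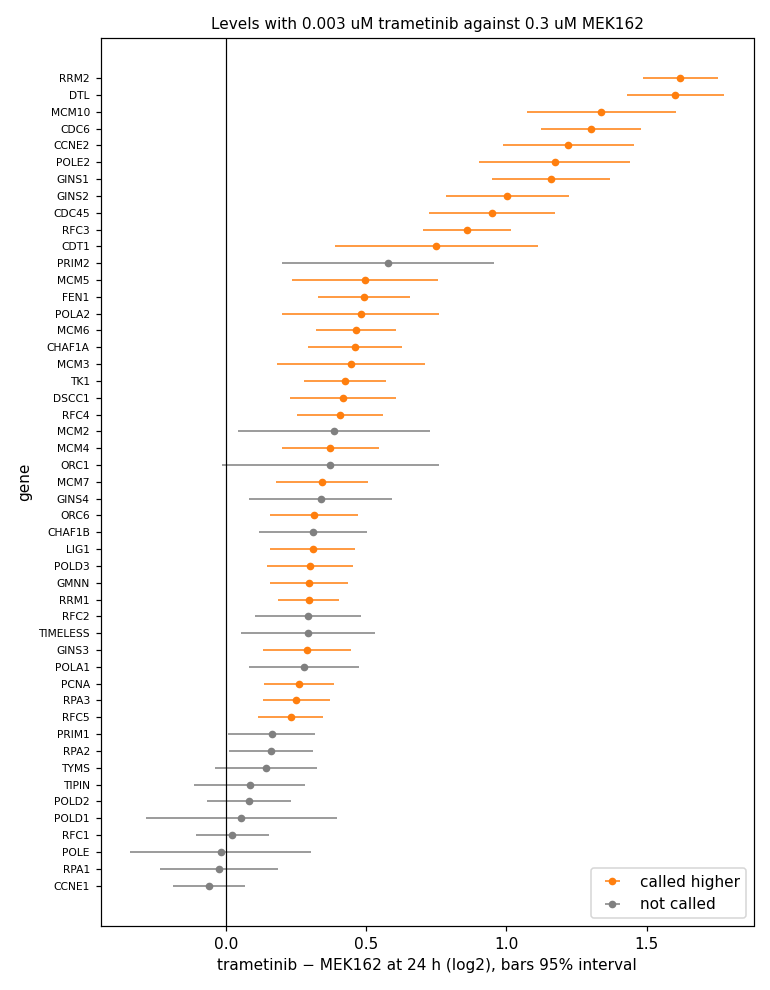
Difference between trametinib and MEK162 at 24 h in log2 (x axis, bars are 95% intervals) for 49 genes (y axis, sorted); orange marks the 31 called higher with trametinib. RRM2 and DTL lie beyond 1.5 and CCNE1 lies at -0.06.

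In the shRNA arm shERK2 lowered nearly the whole set at day 7, and shERK1 did not. At day 7 shERK2 cells were lower than NT cells for 46 of 49 members and higher for none, against 31.5% lower and 32.8% higher of all tested genes. The 46 include POLD1, which passed the level filter of this arm only through its NT day 7 mean. As NT is the control here, the POLD1 call is not independent of the filter. It read 7.77, 7.76 and 8.08 in NT and 7.89, 6.95 and 7.40 in shERK2, with overlap. The median was -0.84, and 18 members fell by at least 1 log2, as did 4.34% of all genes. GINS1 read 12.25, 12.21 and 12.19 in NT and 10.75, 10.68 and 10.58 in shERK2, a fall of 1.54 ± 0.07. POLE2 read 11.50, 11.58 and 11.52 in NT and 9.98, 10.21 and 10.03 in shERK2, a fall of 1.46. MCM10 read 10.59, 10.60 and 10.69 in NT and 9.14, 9.22 and 9.25 in shERK2, a fall of 1.42. In these 3 genes all shERK2 arrays lay more than 1 log2 below all NT arrays. CDC6 fell by 1.41, DSCC1 by 1.39, RRM1 by 1.01 and RRM2 by 0.76. POLD2 (-0.13), POLE (-0.23) and RPA1 (-0.22) were not called.

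Those values include the arrays with high 3' minus 5' signal. Without array a, 49 of 49 members, POLD1 among them, were lower (33.7% of all genes), with a median of -0.90. Without arrays a and c, which leaves array b alone and assumes that it varies like the other groups, 49 of 49 were lower (30.2% of all genes), with a median of -0.92. GINS1 then fell by 1.53, POLE2 by 1.32 and MCM10 by 1.41. POLE, RPA1 and POLD2 were called with falls of 0.77, 0.62 and 0.40, and the fall of ORC1 went from 0.76 to 1.37, of MCM5 from 0.58 to 1.07 and of PRIM2 from 1.36 to 0.76.

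At day 3 shERK2 lowered 19 of 49 members and raised none, with 15.5% of all genes lower and 17.5% higher (26 members had an unadjusted p under 0.05). GINS1 alone fell by at least 1 log2, as did 1.93% of all genes: it read 12.09, 12.05 and 12.00 in NT and 10.92, 11.03 and 11.15 in shERK2, a fall of 1.02 ± 0.07. DSCC1 read 11.71, 11.79 and 11.73 in NT and 11.15, 11.00 and 11.03 in shERK2, and TIPIN read 11.41, 11.35 and 11.35 in NT and 10.78, 10.80 and 10.96 in shERK2. These were the 3 largest falls at day 3, with DSCC1 lower by 0.69 and TIPIN by 0.52. POLE2 read 11.49, 11.51 and 11.45 in NT and 11.03, 11.09 and 11.04 in shERK2, and MCM10 read 10.23, 10.17 and 10.16 in NT and 9.81, 9.78 and 9.89 in shERK2. None of these 5 genes had overlapping groups, and POLE2 and MCM10 fell by 0.43 and 0.36. In all 5 the shERK2 arrays also lay below the parental arrays of that day. DSCC1 read 11.40, 11.44 and 11.41 in parental cells, below NT, so its fall is smaller against parental cells. Other members could overlap: PRIM1 read 10.66, 10.67 and 10.77 in shERK2 and 10.71, 10.85 and 10.82 in parental cells. The difference between shERK2 and parental cells was not tested. Among all 49 members, 35 had every shERK2 array below every NT array at day 3, and the share over all tested genes is not given here. The effect at day 7 was below that at day 3 for 43 of 49 members, against 13% of all genes. Without array a of shERK2 at day 7 it was so for 47, against 17% of all genes. The median of this difference was -0.64 with all arrays. It includes a rise of NT cells from day 3 to day 7, with a median of 0.20 over the 49 members, so it is not a fall in shERK2 cells alone.

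shERK1 brought few members to a call, and the called changes were small. At day 3 its differences from NT were below 0 for 44 of 49 members, with a median of -0.14. With shERK2 at day 3 they were below 0 for 42 of 49, with a median of -0.18. By calls at day 3, 7 members were lower with shERK1 than with NT and none was higher, against 2.69% and 1.97% of all genes. They were CCNE2, PRIM1, DTL, CHAF1B, MCM7, RFC1 and MCM10, and 21 members had an unadjusted p under 0.05. CCNE2 read 9.57, 9.60 and 9.55 in NT and 9.14, 8.67 and 9.33 in shERK1, a fall of 0.53 ± 0.15. PRIM1 read 11.03, 11.03 and 11.07 in NT and 10.74, 10.60 and 10.78 in shERK1, a fall of 0.34. DTL read 10.24, 10.26 and 10.23 in NT and 9.91, 9.91 and 9.95 in shERK1, a fall of 0.32. The groups did not overlap in any of these 3 genes, and the CCNE2 arrays of shERK1 spread most. Among all 49 members, 28 had every shERK1 array below every NT array, so this lack of overlap does not set the called genes apart. Its share over all tested genes is not given here. Parental arrays of that day read 10.71, 10.85 and 10.82 for PRIM1. Of the called members, shERK1 arrays overlapped parental ones for PRIM1, RFC1 and MCM10 and lay below them for CCNE2, DTL, CHAF1B and MCM7. The difference between shERK1 and parental cells was not tested. Leaving out shERK1 array b or c or NT array a, b or c gave 4, 3, 2, 3 and 2 calls.

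At day 7, 1 member was lower with shERK1 and 4 were higher, against 9.16% and 8.74% of all genes. TYMS read 13.10, 13.06 and 13.13 in NT and 12.94, 12.85 and 12.94 in shERK1, a fall of 0.19. GMNN read 12.23, 12.27 and 12.20 in NT and 12.41, 12.51 and 12.58 in shERK1, a rise of 0.27 ± 0.07. RFC5 read 10.30, 10.30 and 10.26 in NT and 10.43, 10.54 and 10.52 in shERK1, a rise of 0.21. The first 3 genes differed by more than the spread of either group. GINS3, which rose by 0.18, read 10.82, 10.80 and 10.86 in NT and 10.90, 11.09 and 11.05 in shERK1, and TIPIN rose by 0.14. None of these 5 genes overlapped between the groups, and the largest of the changes was that of GMNN. Among all 49 members, 8 had every shERK1 array below every NT array and 12 had every one above. The share over all tested genes is not given here. Leaving out shERK1 array b or c or NT array a, b or c gave 1, 1, 2, 3 and 1 calls. The change of the shERK1 effect from day 3 to day 7 passed for 0 members (limma; 17 at an unadjusted p under 0.05), with 0.522% of all genes called.

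The shRNAs were also compared with each other. shERK2 cells were lower than shERK1 cells for 11 members and higher for 2 (TYMS and CCNE2) at day 3, against 16.6% and 18.9% of all genes, and leaving out shERK2 array a or b gave 8 calls. At day 7 they were lower for 45 members, against 33.1% of all genes, and without array a of shERK2 for 49, against 34.6% of all genes. Without arrays a and c, which leaves array b of shERK2 alone, the median member difference was -0.95. With all arrays, GINS1 differed by -0.87 at day 3 and -1.63 at day 7.

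**Figure D5:**
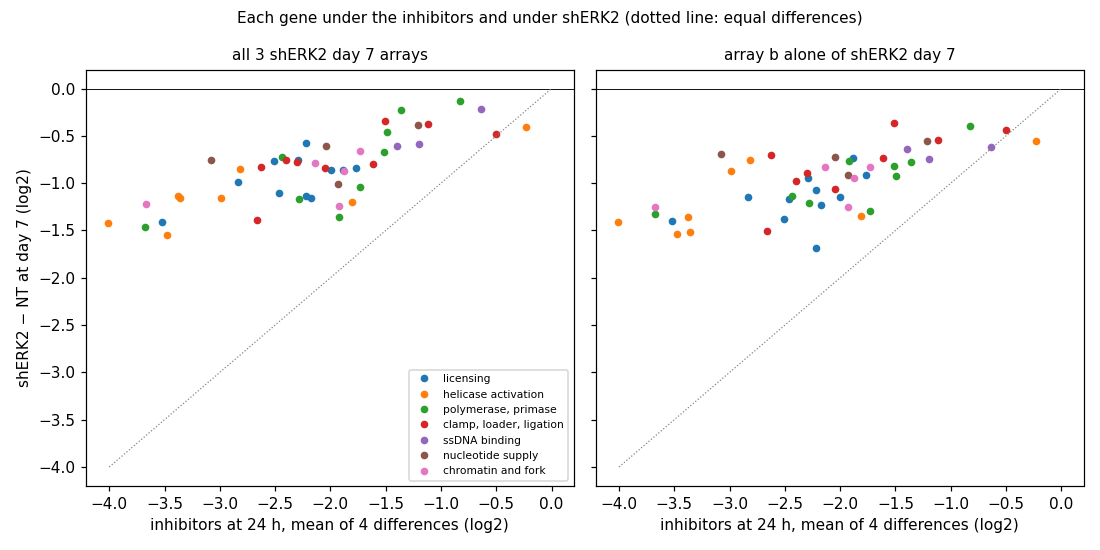
Each of 49 genes by its mean difference over the 4 inhibitors at 24 h (x axis, log2) and its difference between shERK2 and NT at day 7 (y axis, log2), with all 3 shERK2 arrays (left) and with array b alone (right); colour is the role and the dotted line marks equal differences. All genes but CCNE1 lie above the line in the left panel, and MCM10, at -4.01 on the x axis, lies at -1.42 on the y axis.

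Across the 49 members, those that fell more with the inhibitors tended to be lower with shERK2 at day 7 (Pearson r = 0.765, Spearman rho = 0.709), and less closely so at day 3 (r = 0.5, rho = 0.502). The arms share no arrays or controls. Genes are not independent replicates, and the values are a description. RRM2, singled out after its values were seen, fell by 3.08 on average with the inhibitors and by 0.76 with shERK2, while DSCC1 fell by 2.67 and 1.39.

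Control cells also shifted. NT cells were higher than parental cells for 10 members at day 3 and lower for none (15 at an unadjusted p under 0.05), against 6.07% and 5.87% of all genes, with DSCC1 and RFC5 both higher by 0.33. At day 7, 4 were higher (RFC5, TIPIN, RPA2 and GINS3) and LIG1 was lower, against 8.27% and 8.11%. From day 3 to day 7, 33 members rose in parental cells (3.44% of all genes) and 13 in NT cells (2.53%), and none fell. MCM10 rose by 0.61 in parental and by 0.44 in NT cells, and CDC6 by 0.60 and 0.37. Each shERK group was set against the NT group of its own day. Leaving out any 1 array of the comparison gave 5 or 6 calls for NT against parental cells at day 3. At day 7 it gave 2 or 3 calls for each array except parental c, and for NT day 7 against day 3 it gave 6 or 7 for each array except NT day 7 array b.

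Genes of the same pathways outside the 51 were read from lists of other replication factors, other deoxynucleotide enzymes and de novo purine and pyrimidine enzymes. Of 36 other replication factors 35 were tested, and 30, 32, 31 and 31 were lower at 24 h with LGX818, trametinib, MEK162 and the ERK inhibitor, with 1 higher each time. Over all tested genes 33.8%, 33%, 33.8% and 31.5% were lower and 35.4%, 31.6%, 33.4% and 33.6% higher, which also holds as the comparison for the lists that follow. ASF1B, a histone chaperone, fell by 4.53, 3.06, 4.55 and 2.99, TOP2A, the topoisomerase that untangles daughter DNA, by 3.54, 2.37, 3.43 and 2.25, and CDCA7 by 3.65, 2.40, 3.47 and 2.26. POLD4, the smallest subunit of DNA polymerase delta, rose by 0.78, 0.74, 0.87 and 0.57, unlike POLD1, POLD2 and POLD3. Within the origin recognition complex, ORC2 was not called with any inhibitor, ORC3 fell by 0.73 with LGX818, and ORC4 and ORC5 by 0.20 and 0.22, against falls of 2.93 and 2.48 for ORC1 and ORC6.

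Of 16 other deoxynucleotide genes 14 were in the table and tested, and 11, 11, 11 and 10 were lower and 2, 3, 2 and 2 higher. MTHFD2, a mitochondrial folate enzyme, fell, with differences of -2.74, -2.12, -2.79 and -2.09, as did DTYMK, which phosphorylates thymidylate (-1.87, -1.53, -1.73 and -1.60), and SHMT1 (-1.17, -1.10, -1.21 and -1.07). SAMHD1, which breaks down deoxynucleotides, rose by 0.93, 1.05, 0.99 and 1.05, and TK2, the mitochondrial thymidine kinase, by 0.28, 0.20, 0.27 and 0.28. Of 17 de novo purine and pyrimidine genes 15 were tested; 13, 14, 13 and 13 were lower and none was higher. CTPS1, which makes CTP, fell by 1.23, 1.14, 1.29 and 1.18, PRPS1 by 1.32, 1.09, 1.17 and 1.06, and PPAT by 1.05 with LGX818 and with the ERK inhibitor. At 3 h these lists gave 4 calls: ORC2 and UMPS were lower with trametinib, and PPAT and GART with MEK162, where 11.3% and 13.2% of all tested genes had changed. With shERK2 at day 7, 27 of 35 other replication factors, 9 of 14 deoxynucleotide genes and 12 of 15 de novo genes were lower than in NT cells, and 1 of each list was higher, against 31.5% and 32.8% of all tested genes.

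Markers of cell type moved as well. Of the 7 melanocytic markers tested, 6, 6, 6 and 5 were higher and 0, 1, 0 and 1 lower at 24 h with LGX818, trametinib, MEK162 and the ERK inhibitor, and 3 were higher with each inhibitor at 3 h. Among all tested genes 5.27%, 5.09%, 6.38% and 5.51% were higher at 3 h in the same order. With shERK2 at day 7, 4 of these markers were lower and 3 higher, against 31.5% and 32.8% of all tested genes. They ran from -1.13 for PMEL, a melanosome protein, to 1.20 for TYRP1, an enzyme of pigment synthesis. CD68, a lysosomal protein of macrophages and the single leukocyte marker above the level filter, was higher by 0.76 with LGX818, 0.49 with MEK162, 0.36 with the ERK inhibitor and 0.83 with shERK2 at day 7, and PTPRC, which defines leukocytes, reached at most 3.51 on any array. The part of these markers in the results on replication genes was not tested.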

How the data were processed

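RNA of 54 samples was measured on Affymetrix arrays, 1 array each. The deposited values are log2 expression levels, made by the authors with affy and RMA per the submitters' processing notes; versions, the chip definition and the genome build are not given in the sources used here. RMA subtracts background and forces all arrays to 1 distribution, so differences are relative to all genes. Of 18989 probe sets, 62 were controls, 17875 had 1 gene, and 1052 were not named and not used. Values ran from 2.51 to 14.8, and 0 columns were unmapped. How many arrays there are limits the precision.

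Each arm was fitted on its own in limma 3.58.1 (R 4.3.3), with 1 mean per group and an intensity trend in eBayes. Residual degrees of freedom were 20 (inhibitors) and 16 (shRNA). Genes entered if the highest group mean of the arm passed 7.858, the median of all values; 9703 and 9779 were tested, and p-values were Benjamini-Hochberg adjusted over them. A call is an adjusted p under 0.05. A member that passed the filter only through its controls could hardly avoid a difference, so counts are read beside those of all tested genes. In the shRNA arm POLD1 passed only through NT at day 7. The script was tested on simulated data.

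Members and lists were chosen with earlier results of these data known. Array values are given for the largest and smallest mean 24 h difference over the 4 inhibitors in each role, and for the 3 largest rises and falls per shRNA among called members, with POLE2 and MCM10 repeated at day 3 of shERK2. Other lists name up to 3 rises and 3 falls called with all 4 inhibitors. Promoters are those of the 3 members with the largest and the 3 with the smallest mean difference, outside barred regions. The 9 members without a counted window include MCM4, GINS4, CCNE2 and DSCC1, left out as lying in barred regions. They also include UHRF1, which was not in the array table and was not looked up.

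The letters a to c were checked as pairs in 14 comparisons by correlating deviations from group means. In 3 (MEK162 3 h, ERK inhibitor 3 h, MEK162 24 h) every letter exceeded r = 0.1; r ran from -0.563 to 0.686. The pairing there comes from the data, as the labels do not say what a letter shares. Alternatives were no level filter, only the groups compared, all 54 arrays together, no trend, a shift to 1 median, the letter as a block, and each array left out.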

Additional observations from a re-analysis of the deposited data

Results flagged for a closer look

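The effect of each inhibitor differed between 3 h and 24 h for most members by a direct test of the difference (an interaction contrast in limma). It was lower at 24 h for 48 of 49 members with LGX818, 48 with trametinib, 48 with MEK162 and 49 with the ERK inhibitor. Among all tested genes 26%, 27.1%, 27.4% and 25.4% were lower in the same order. The effect of shERK2 against NT was lower at day 7 than at day 3 for 43 of 49 members by the same kind of test, against 13% of all tested genes. The change in NT cells between these days enters that difference.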

How the results depend on the processing

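Of 7693 single-gene values recomputed under the alternatives, none changed direction after a call. At 3 h, fitting only the groups compared gave 1 call with LGX818 and 1 with MEK162, and all 54 arrays together gave 1 with MEK162. The replicate block gave 1 call for MEK162 at 3 h and moved no other count by over 1.5 times. For shERK1 at day 3, no level filter gave 4 calls and a shift to 1 median gave 4. For shERK1 at day 7, only the groups compared gave 9 and all arrays together 2. Only the groups compared gave 31 calls for shERK2 at day 3, 18 for NT against parental cells at day 3 and 38 for NT day 7 against day 3. The change of the shERK1 effect between days gave 4 calls with only the groups compared, 1 with all arrays and 1 without the trend. NT against parental cells at day 7 gave 3 with no filter, 3 with only the groups compared and 3 with a shift to 1 median. Leaving out 1 array gave 0 to 2 calls for trametinib at 3 h, 0 to 2 for MEK162 at 3 h, 0 to 1 for the ERK inhibitor at 3 h and 3 to 5 for DMSO over time. It gave 2 to 6 for shERK1 at day 3, 1 to 5 at day 7 and 8 to 10 for shERK2 against shERK1 at day 3. NT against parental cells gave 5 to 6 at day 3 and 2 to 4 at day 7, and NT day 7 against day 3 gave 6 to 10. Leaving out arrays removes samples, and fits of only the groups compared have fewer degrees of freedom; beyond that the cause was not tested. The alternative without shERK2 day 7 arrays a and c was chosen after seeing the data. Signal over background was not measured here, so how far it limits the falls of MCM10, CDC6 and DTL was not tested.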
